A study of Homo sapiens with 8 samples.

Results

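The genes described here are the enzymes that build fatty acids from acetyl-CoA, the stearoyl-CoA desaturases and the lipogenic transcription factor MLXIPL. Their RNA was measured in a pancreatic cancer cell line with and without ELAPOR1 overexpression. They were taken by symbol from the authors' table of estimated read counts, in which all 10 (ACLY, ACSS2, ME1, ACACA, ACACB, FASN, ELOVL6, SCD, SCD5 and MLXIPL) were found among 58870 gene rows. Panc 10.05 is an established line from a human pancreatic ductal adenocarcinoma. Bulk RNA of these cells had been sequenced in 8 libraries, of which 4 came from control cells and 4 from cells that carry an ELAPOR1 transgene (endosome-lysosome associated apoptosis and autophagy regulator 1). The labels name no further allele or agent. They do not say by what means ELAPOR1 was overexpressed, whether the cells are a clone or a pool, or what the control cells received. Nothing says that the libraries came from separate cultures, so p-values measure the spread between these libraries, which may be technical. The title of the series names the classical/progenitor subtype and metabolic reprogramming, and the comparison of the 2 groups addresses the metabolic side.

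Fatty acid synthesis in the cytosol starts from acetyl-CoA, which ATP citrate lyase (ACLY) cuts from citrate exported by mitochondria and which ACSS2 makes from acetate. The acetyl-CoA carboxylases ACACA and ACACB turn it into malonyl-CoA, and fatty acid synthase (FASN) joins these units into palmitate with NADPH, part of which comes from malic enzyme (ME1). ELOVL6 lengthens palmitate to stearate, and the desaturases SCD and SCD5 put a double bond into both, giving the monounsaturated fatty acids of membranes and stored lipid. The pathway is under the control of the sterol regulatory element-binding proteins, of LXR and of MLXIPL, the carbohydrate-responsive factor also called ChREBP, and it is commonly active in carcinomas, pancreatic ones included.

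The libraries held 13765509 to 18128757 counts, with 16558600 to 18128757 in control and 13765509 to 17258166 in ELAPOR1 libraries. ELAPOR1 itself, listed as KIAA1324, had 1 to 4 counts in each control library and 5910 to 7368 in each ELAPOR1 library, so all 8 matched their labels. Gene counts cannot tell transcripts of a transgene, if one was used, from endogenous transcripts. All 6 epithelial markers examined (KRT7, KRT8, KRT18, KRT19, EPCAM and CDH1) were present. Of these, 5 were called in either direction (edgeR adjusted p-value under 0.05), beside 44.7% of all tested genes. Their summed level was 11929 to 13196 counts per 1e6 counts (CPM) in control and 11159 to 11510 CPM in ELAPOR1 libraries. The 4 acinar markers and the defining fat cell gene ADIPOQ were at 0 counts in every library, and the sum over 4 fat cell markers was at most 0.499 CPM. Of 6 fibroblast markers COL1A2, DCN and LUM were at 0, and the sum over the 6 was 2.95 to 4.32 CPM in control and 2.71 to 3.19 CPM in ELAPOR1 libraries. Of 4 endothelial markers CDH5 was at 0 and 1 was called, with sums of 1.62 to 2.13 CPM and 0.576 to 0.998 CPM. A summed level of 82.0 to 88.4 CPM in control and 73.3 to 79.1 CPM in ELAPOR1 libraries was found for 5 leukocyte markers, among which CD3E was at 0. The share of mitochondrial transcripts was 4.29% to 4.41% in control and 4.70% to 4.93% in ELAPOR1 libraries. The part of the markers and of this share in the results was not tested. In bulk RNA, fewer cells that express a gene and less RNA of it per cell cannot be told apart.

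Of the 10 genes, 6 were lower in ELAPOR1 libraries (SCD, ACSS2, MLXIPL, FASN, ME1 and ELOVL6), none was higher, and 4 were not called (ACLY, ACACA, ACACB and SCD5), at an edgeR adjusted p-value under 0.05. The falls ran from SCD, which dropped to 50.3% of its control level, to ELOVL6, which dropped to 83.4%. Over all 13860 genes tested, 44.7% were called in either direction and 22.1% were called lower. All 10 genes passed the filter on low counts. The same 6 genes were those with no overlap in CPM between the groups, as was found for 39.2% of all tested genes. The median log2 fold change was -0.28 over the 10 genes and 0.00087 over all tested genes. A fall of more than 1.5-fold was fitted for 4 of the 10 (SCD, ACSS2, MLXIPL and FASN), against 704 (5.08%) of all tested genes. In a test against a 1.5-fold change (edgeR's glmTreat) SCD and ACSS2 were called, beside 1.55% of all tested genes.

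**Figure D1:**
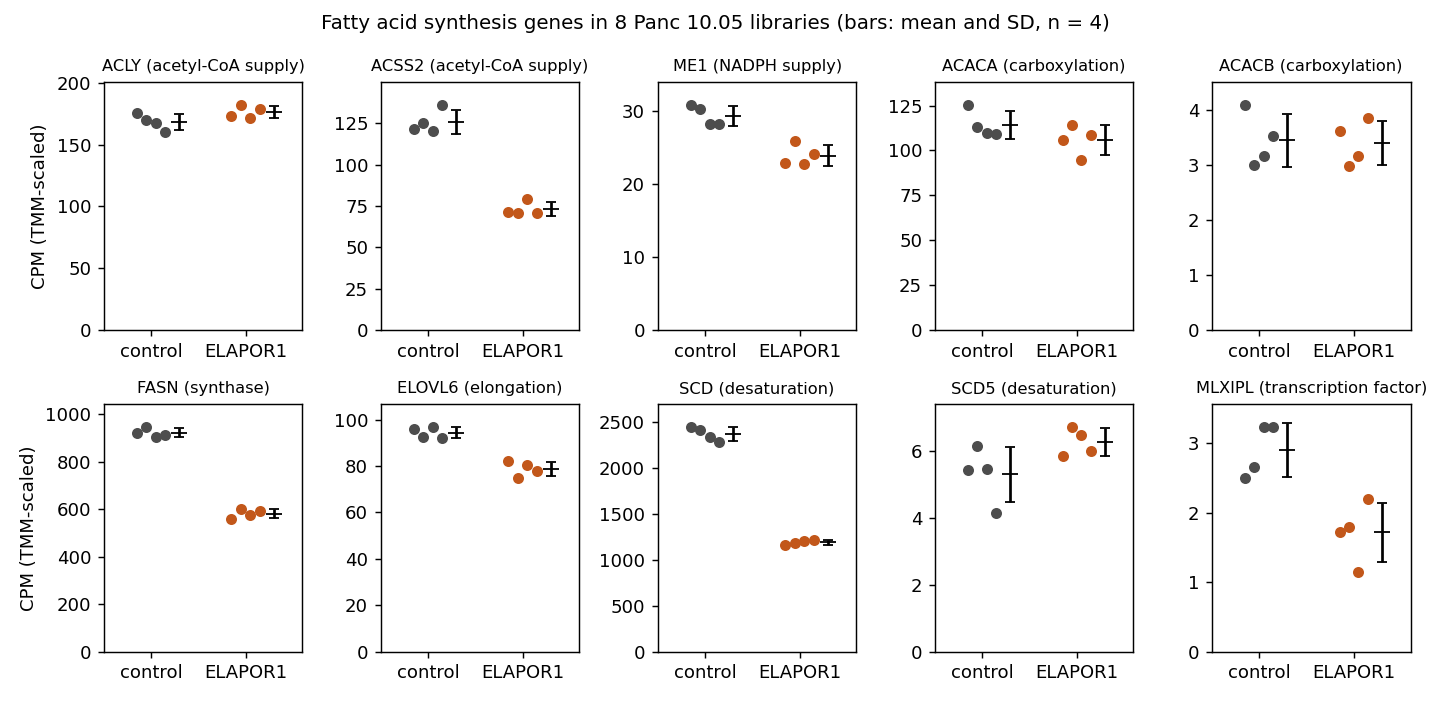
CPM, scaled by TMM, of the 10 genes in each of the 8 libraries (points), with the mean and SD of 4 libraries per group (bars); every vertical axis starts at 0. For SCD, FASN, ACSS2, ME1, ELOVL6 and MLXIPL every ELAPOR1 library lay below every control library, while the groups overlapped for ACLY, ACACA, ACACB and SCD5.

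SCD, the main stearoyl-CoA desaturase, showed the largest fall of the 10 and was the most abundant of them. The gene spans bases 100347124 to 100364834 of chromosome 10 (GRCh38, plus strand). Its level was 2445, 2410, 2327 and 2277 CPM in the 4 control libraries and 1160, 1176, 1202 and 1215 CPM in the 4 ELAPOR1 libraries. The lowest control library was therefore well above the highest ELAPOR1 library. The means were 2365 ± 76.5 and 1188 ± 24.7 CPM (SD, n = 4 each). By edgeR the log2 fold change was -0.99 with an SE of 0.0273 (95% confidence interval -1.05 to -0.94, adjusted p = 7.1e-25). Ranked by CPM, SCD was number 25 of all genes in control and number 64 in ELAPOR1 libraries. It took 0.235% of all control counts and 0.120% of all ELAPOR1 counts. By log2 fold change it was number 168 among the falls of the tested genes, but its loss of 1176 CPM was number 2 among all genes. The pseudogene SCDP1, a copy of SCD, held a mean of 0.875 counts per library, so few reads were assigned to it.

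SCD5, the other human desaturase gene, did not follow SCD. SCD5 spans bases 82629539 to 82798857 of chromosome 4 (minus strand). Its level was 5.43, 6.14, 5.45 and 4.15 CPM in control and 5.83, 6.72, 6.48 and 5.999 CPM in ELAPOR1 libraries. One control library lay within the range of the ELAPOR1 libraries, and the log2 fold change was 0.24, with an SE of 0.137 (adjusted p = 0.163 by edgeR). Without control replicate 4 it was 0.14 (adjusted p = 0.468). With 68 to 104 counts per library the 95% confidence interval over all 8 libraries reached from -0.04 to 0.52, so a moderate rise could not be told from no change, and a fall of the size seen for SCD lay outside it. Per length of merged exons, SCD5 made up 0.227% to 0.317% of the 2 desaturase transcripts in control and 0.613% to 0.709% in ELAPOR1 libraries.

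The stretches before the start sites of the desaturase genes are shown because these paralogs differed in response. They come from the RefSeq promoter table on GRCh38.p14, trimmed to the bases that also lie before the GENCODE 29 start of each gene, and run 5′ to 3′ on the strand of the gene. SCD is chr10:100346983-100347123 on the plus strand, which covers bases -250 to -110 before the RefSeq start, and SCD5 is chr4:82798858-82799046 on the minus strand, which covers bases -250 to -62. Capitals mark matches to CCAAT, the box bound by NF-Y, or to GGGCGG, the GC box bound by Sp1, on either strand, where they read ATTGG and CCGCCC.
SCD: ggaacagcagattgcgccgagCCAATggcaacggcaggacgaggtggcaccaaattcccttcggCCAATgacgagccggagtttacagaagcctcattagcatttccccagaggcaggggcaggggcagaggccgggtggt
SCD5: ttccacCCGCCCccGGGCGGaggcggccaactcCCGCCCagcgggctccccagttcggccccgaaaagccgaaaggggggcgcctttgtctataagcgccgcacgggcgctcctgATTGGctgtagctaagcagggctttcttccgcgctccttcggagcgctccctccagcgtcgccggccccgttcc

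The SCD stretch holds 2 CCAAT boxes on the strand of the gene, at bases -229 and -186, and the SCD5 stretch holds 1 on the other strand, at base -135. In the whole window of 250 bases SCD has 2 GC boxes and SCD5 has 4. Of 35116 windows of this length in the table, 32.0% hold a CCAAT box and 42.6% a GC box on either strand. The E-box CACGTG (6.34% of windows) and the letters TCACNCCAC, a core of the sterol regulatory element (0.883% of windows), were searched on both strands in the 14 windows of the 9 genes that have one and matched in none. CCAAT matched in at least 1 window of ACLY, ACSS2, ACACA, ACACB, SCD and SCD5, which include both called and uncalled genes. These are matches of letters and describe the sequence only.

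Of the enzymes that supply acetyl-CoA, the acetate enzyme ACSS2 fell and the citrate enzyme ACLY did not change detectably. ACSS2 spans bases 34872146 to 34927962 of chromosome 20 (plus strand). It was at 121, 125, 120 and 136 CPM in control and 71.4, 70.8, 79.2 and 70.5 CPM in ELAPOR1 libraries. The groups stood far apart, at 126 ± 7.23 and 73.0 ± 4.15 CPM (SD, n = 4 each). By edgeR the log2 fold change was -0.79 with an SE of 0.0444 (adjusted p = 5.3e-16). ACLY spans bases 41866908 to 41930542 of chromosome 17 (minus strand). It was at 176, 170, 168 and 160 CPM in control and 173, 182, 171 and 179 CPM in ELAPOR1 libraries, ranges that overlap. Its log2 fold change was 0.06, with an SE of 0.0344 (95% confidence interval -0.01 to 0.13, adjusted p = 0.130 by edgeR), an interval that leaves no room for a fall like that of ACSS2. ACLY was called as higher when libraries were scaled by total counts (0.09, adjusted p = 0.0421) and without control replicate 1 (0.08, adjusted p = 0.0379), and was at 0.04 without control replicate 4 (adjusted p = 0.343) and with trends against GC content and length removed (adjusted p = 0.330).

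ME1, the cytosolic malic enzyme that yields NADPH, fell modestly. ME1 spans bases 83210389 to 83431071 of chromosome 6 (minus strand). Its level was 30.8, 30.2, 28.2 and 28.2 CPM in control and 22.9, 25.8, 22.7 and 24.1 CPM in ELAPOR1 libraries. The groups did not overlap, and the means of 29.4 ± 1.36 and 23.9 ± 1.44 CPM (SD, n = 4 each) gave a log2 fold change of -0.30, with an SE of 0.0657 (adjusted p = 0.00034 by edgeR).

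Neither acetyl-CoA carboxylase was called. ACACA, the cytosolic enzyme that makes malonyl-CoA for synthesis, spans bases 37084988 to 37406818 of chromosome 17 (minus strand). It was at 125, 113, 109 and 109 CPM in control and 106, 114, 94.7 and 109 CPM in ELAPOR1 libraries. These ranges overlap, and the log2 fold change was -0.11, with an SE of 0.0519 (95% confidence interval -0.22 to -0.003, adjusted p = 0.0897 by edgeR). Its call depends on the settings. ACACA passed the threshold with trends against GC content and length removed (-0.16, adjusted p = 0.00438), with no filter on low counts (-0.11, adjusted p = 0.0227) and without ELAPOR1 replicate 2 (-0.15, adjusted p = 0.0243). It was nearer to 0 without ELAPOR1 replicate 3 (-0.06, adjusted p = 0.304) and without control replicate 1 (-0.07, adjusted p = 0.208).

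ACACB, the carboxylase of the outer mitochondrial membrane whose malonyl-CoA restrains fatty acid oxidation, was barely expressed. ACACB spans bases 109116595 to 109268226 of chromosome 12 (plus strand). It had 44 to 74 counts per library, or 4.10, 3.01, 3.18 and 3.54 CPM in control and 3.62, 2.99, 3.17 and 3.86 CPM in ELAPOR1 libraries. The groups overlapped almost fully. The log2 fold change was -0.02, with an SE of 0.178 (95% confidence interval -0.38 to 0.35, adjusted p = 0.956 by edgeR), so a change of moderate size was not detectable at this depth. Per exon length ACACB made up 2.33% to 2.85% of the 2 carboxylase transcripts in control and 2.30% to 3.10% in ELAPOR1 libraries.

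FASN, the multifunctional synthase that carries out every step from malonyl-CoA to palmitate, fell clearly. FASN spans bases 82078333 to 82098332 of chromosome 17 (minus strand). It was at 922, 949, 907 and 912 CPM in control and 558, 603, 575 and 592 CPM in ELAPOR1 libraries. No control library came near the ELAPOR1 range. The means were 923 ± 18.7 and 582 ± 19.7 CPM (SD, n = 4 each). By edgeR the log2 fold change was -0.66 with an SE of 0.0284 (adjusted p = 1.7e-19). In order of CPM, FASN was number 104 of all genes in control and number 198 in ELAPOR1 libraries.

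ELOVL6, the elongase that acts between FASN and the desaturases, fell least of the 6. ELOVL6 spans bases 110045846 to 110199199 of chromosome 4 (minus strand). Its level was 96.1, 92.7, 97.0 and 92.1 CPM in control and 82.0, 75.1, 80.5 and 77.9 CPM in ELAPOR1 libraries. The groups were separate by a margin larger than the spread within either, and the log2 fold change was -0.26, with an SE of 0.0409 (adjusted p = 2.8e-06 by edgeR).

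MLXIPL, the transcription factor ChREBP, was at the edge of detection and lower in ELAPOR1 libraries. MLXIPL spans bases 73593194 to 73624543 of chromosome 7 (minus strand). Its counts were 45, 45, 54 and 53 in control and 28, 27, 16 and 38 in ELAPOR1 libraries, or 2.49, 2.66, 3.24 and 3.23 CPM against 1.72, 1.80, 1.15 and 2.19 CPM. The groups did not overlap, although ELAPOR1 replicate 4 came close to control replicate 1. The log2 fold change was -0.74, with an SE of 0.225 (95% confidence interval -1.20 to -0.28, adjusted p = 0.0073 by edgeR), and the wide interval leaves the size of the fall poorly fixed.

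**Figure D2:**
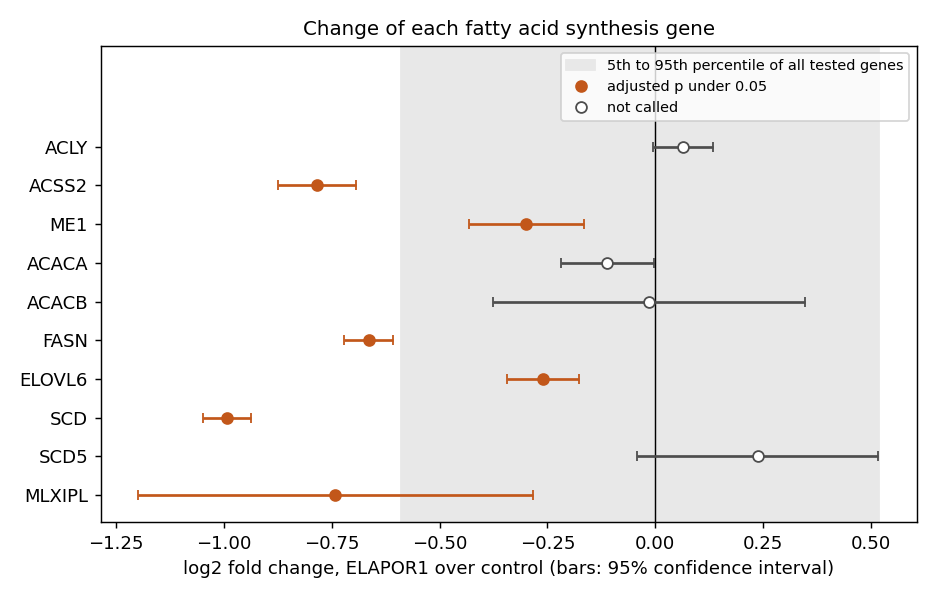
Log2 fold change of ELAPOR1 over control for each gene, with its 95% confidence interval; filled points passed an edgeR adjusted p-value of 0.05 and the grey band spans the 5th to 95th percentile of all tested genes (-0.59 to 0.52). SCD, ACSS2, FASN and MLXIPL lie to the left of the band, with the interval of MLXIPL reaching into it, and the intervals of ACACB and SCD5 are wide, at 44 to 104 counts per library.

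Within each library, ratios were taken between genes of neighbouring steps or between paralogs, and most of them differed between the groups. A total of 6 pairs was compared with two-sided exact permutation tests, whose smallest possible p-value with 4 and 4 libraries is 0.0286. SCD fell further than FASN, at 1.36 ± 0.0366 in control and 1.03 ± 0.0464 with ELAPOR1 (log2 ratio, mean ± SD of 4 libraries, exact permutation p = 0.0286, adjusted p = 0.0343). The same smallest p-value was found for 4 further pairs, in which the groups did not overlap either. The log2 ratio changed by -0.73 for SCD over ELOVL6, by -1.22 for SCD over SCD5, by -0.55 for FASN over ACACA and by 0.84 for ACLY over ACSS2. SCD over SCD5, FASN over ACACA and ACLY over ACSS2 each set a gene that was called lower beside one not called. The ratio of ACLY to ACSS2 went from 0.42 ± 0.131 to 1.27 ± 0.113 (log2, SD, n = 4 each). ACACA over ACACB was the pair with no detectable change, at 4.86 ± 0.121 in control and 4.77 ± 0.182 with ELAPOR1 (log2 ratio, mean ± SD of 4 libraries, exact permutation p = 0.400, adjusted p = 0.400).

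**Figure D3:**
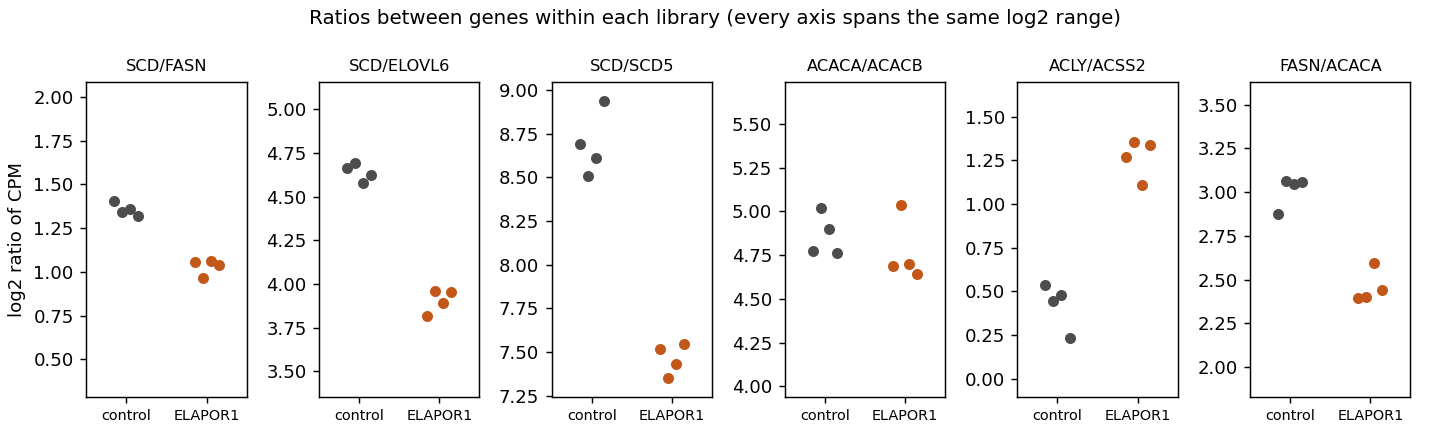
Log2 ratio of the CPM of 2 genes within each library (points), by group; all axes span the same number of log2 units, so that shifts can be compared between panels. The ratio of SCD to FASN, ELOVL6 and SCD5 and of FASN to ACACA is lower in all 4 ELAPOR1 libraries, that of ACLY to ACSS2 is higher in all 4, and ACACA over ACACB overlaps.

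Levels of different genes were compared per kilobase of merged exons. In control libraries the order ran from SCD at 441 ± 14.3 CPM per kilobase over FASN at 98.5 (range 96.9 to 101), ACLY at 32.3 ± 1.25, ACSS2 at 23.3 ± 1.34 and ELOVL6 at 12.9 ± 0.338 (SD, n = 4). ACACA at 8.78 ± 0.590 and ME1 at 8.71 ± 0.404 CPM per kilobase followed and overlapped each other. SCD5 at 1.23 ± 0.194, MLXIPL at 0.603 ± 0.0802 and ACACB at 0.238 ± 0.0333 CPM per kilobase were far below. The order was the same in ELAPOR1 libraries, where SCD was at 222 ± 4.61, FASN at 62.1 ± 2.10 and ACSS2 at 13.6 ± 0.770 CPM per kilobase (SD, n = 4), and where MLXIPL at 0.356 ± 0.0890 overlapped ACACB at 0.235 ± 0.0277. Neighbours in the order did not overlap otherwise. The summed CPM of the 10 genes was 3726 to 3929 in control and 2185 to 2278 in ELAPOR1 libraries, of which SCD made up 61.1% to 62.2% and 52.1% to 53.8%.

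**Figure D4:**
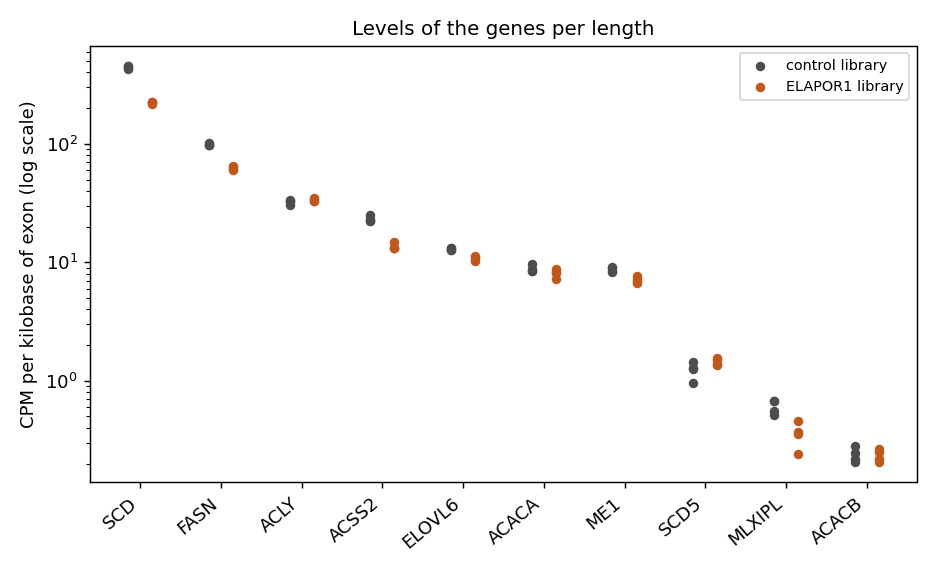
Level of each gene per kilobase of merged exons (CPM per kilobase, log scale) in the 4 control and 4 ELAPOR1 libraries (points), ordered by control level. SCD is highest and ACACB lowest in both groups, and ACACA overlaps ME1.

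To set each gene beside its stretch of chromosome, the 10 tested genes on either side of it were examined. The median log2 fold change of these 20 neighbours was 0.18 for ACLY and 0.22 for ACACA, both on chromosome 17, with 6 and 7 neighbours called higher and 2 and 0 called lower. Around FASN, further along the same chromosome, it was -0.18, with 2 neighbours higher and 7 lower. SCD fell among neighbours with a median of 0.10, of which 7 were called higher and 4 lower. For ACSS2, ME1, ELOVL6, SCD5, ACACB and MLXIPL the median of the neighbours lay between -0.10 and 0.03. The part of the surrounding stretch in the values of ACLY, ACACA and FASN was not tested. No other gene with an exonic overlap had any count: the antisense transcript AC125257.2 over ACLY was at 0 in all libraries.

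Genes that act before, beside or above the pathway were taken from 9 lists recalled from pathway knowledge, with 107 genes in all, of which 89 were tested. Of these, 12 were called higher and 35 lower, and 42 were not called (18 higher and 34 lower with total count scaling). Over all tested genes 44.7% were called, and 22.1% were called lower. The citrate carrier SLC25A1, which passes mitochondrial citrate on to ACLY, fell from 66.8 ± 2.59 to 42.4 ± 2.02 CPM (SD, n = 4 each, log2 fold change -0.66, edgeR adjusted p = 5.0e-13). It was the largest change among 11 tested genes of acetyl-CoA and citrate supply, of which 4 were lower, none was higher and 7 were not called. Citrate synthase (CS), at 350 CPM in both groups, was among the latter (log2 fold change -0.0003, adjusted p = 0.995).

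Other genes around NADPH supply went in both directions, with 2 of 7 tested genes higher and 3 lower. PGLS, a lactonase of the pentose phosphate pathway that the authors list under the clone name AC010618.1, fell from 54.6 ± 3.66 to 34.5 ± 1.78 CPM (SD, n = 4 each, log2 fold change -0.66, edgeR adjusted p = 9.6e-12). In the elongation cycle and acyl-CoA activation, 2 of 13 tested genes were higher and 5 lower, with TECR, the reductase of the cycle, at -0.23 (edgeR adjusted p = 5.2e-06) and the acyl-CoA synthetase ACSL5 at 0.20 (adjusted p = 8.7e-05). Mitochondrial fatty acid synthesis, a separate pathway that makes the precursor of lipoic acid, had 3 of 11 tested genes lower, none higher and 8 not called. Over all tested genes 22.1% were called lower. Among the lower genes of at least 5 CPM, the reductase subunit CBR4 fell most (-0.31, edgeR adjusted p = 0.00020).

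Among regulators, 5 of 18 tested genes were lower and 2 higher, while 11 were not called, beside 22.1% of all tested genes called lower. SREBF1 encodes the sterol regulatory element-binding protein tied most closely to fatty acid synthesis. It was at 88.0, 91.6, 91.9 and 85.1 CPM in control and 62.5, 71.3, 64.8 and 65.5 CPM in ELAPOR1 libraries (log2 fold change -0.43, SE 0.0447, edgeR adjusted p = 7.3e-10). SREBF2, the gene of the other such protein, was named after its values were seen. Its fall was no smaller, from 294 ± 8.51 to 212 ± 4.50 CPM (SD, n = 4 each, log2 fold change -0.47, edgeR adjusted p = 1.8e-14). INSIG1, which holds these proteins in the endoplasmic reticulum and is itself one of their targets, fell from 185 ± 7.14 to 112 ± 6.18 CPM (SD, n = 4 each, log2 fold change -0.72, adjusted p = 8.0e-17). The groups did not overlap for SREBF1, SREBF2 or INSIG1. MID1IP1, an activator of the acetyl-CoA carboxylases that was singled out after its values were seen, fell by 0.64 on the log2 scale (adjusted p = 6.9e-14). MBTPS2, a protease that releases these factors, was the largest rise (0.19, adjusted p = 0.00669), and MLX, the partner of both ChREBP and MondoA that was named after its values were seen, rose by 0.16 (adjusted p = 0.00628). MLXIP, which encodes MondoA, was not called (0.09, adjusted p = 0.0750; 0.11 and called as higher, adjusted p = 0.0268, with total count scaling).

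All 3 tested genes on the list of other MondoA and ChREBP targets rose, while MLXIPL itself fell. The other 3 of the list were too low to test. For comparison, 44.7% of all tested genes were called in either direction. TXNIP, an inhibitor of glucose uptake, rose from 47.0 ± 3.10 to 57.5 ± 2.16 CPM (SD, n = 4 each, log2 fold change 0.29, edgeR adjusted p = 1.7e-05). KLF10, a transcription factor that also responds to TGF-beta, rose from 43.3 ± 0.924 to 68.7 ± 2.53 CPM (0.67, adjusted p = 1.0e-13). ARRDC4, named after its values were seen, rose from 2.11 ± 0.387 to 4.16 ± 0.519 CPM (0.98, adjusted p = 8.3e-05). Of 4 tested targets of LXR other than the lipogenic enzymes, the cholesterol exporter ABCA1 fell (-0.66, adjusted p = 3.7e-06), the phospholipid-remodelling enzyme LPCAT3 rose (0.44, adjusted p = 2.9e-07) and 2 were not called.

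On a list of 14 genes, sterol enzymes and the LDL receptor, that share regulators with fatty acid synthesis, 12 were lower and none higher. Among all tested genes, 22.1% were called lower. The median of the 14 was -0.56 (log2 fold change), FDPS being the furthest (-0.87, edgeR adjusted p = 3.0e-21). The fitted fall of SCD (-0.99) was larger than that of each of these 14, and that of ELOVL6 (-0.26) was smaller than their median; these differences were not tested. Fatty acid uptake and binding had 2 of 8 tested genes higher and 2 lower, beside 44.7% of all tested genes called in either direction. The transporter SLC27A1 fell from 9.40 ± 1.15 to 4.29 ± 0.305 CPM (SD, n = 4 each, log2 fold change -1.13, edgeR adjusted p = 6.0e-09) and the fatty acid-binding protein FABP5 rose from 32.8 ± 1.12 to 39.1 ± 0.698 CPM (0.25, adjusted p = 0.00034).

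**Figure D5:**
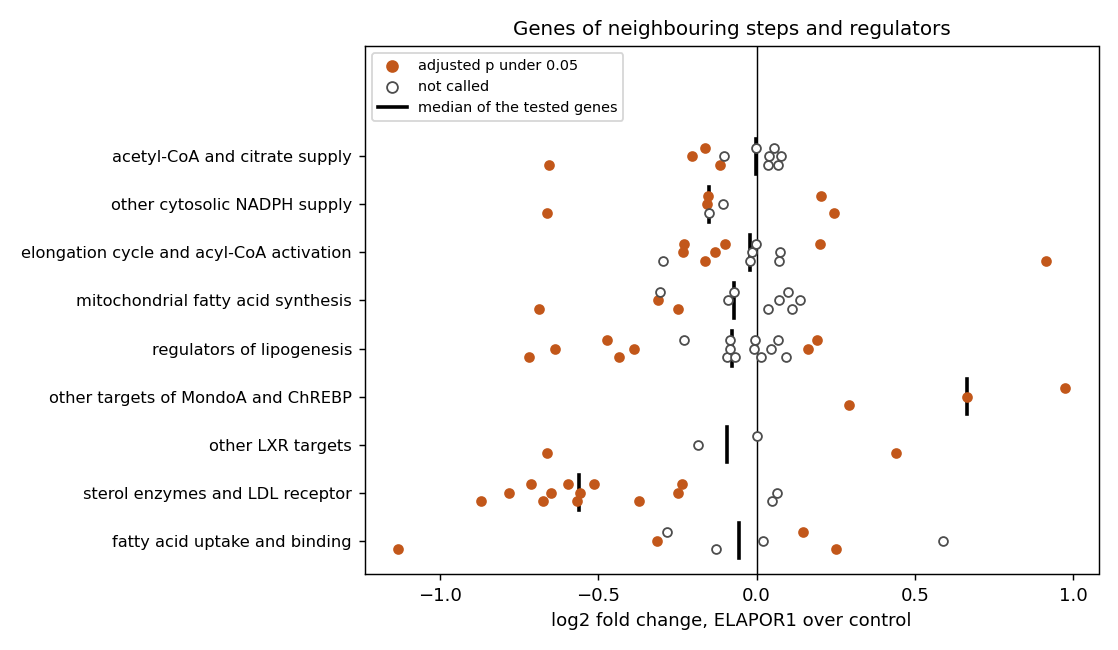
Log2 fold change of ELAPOR1 over control of the tested genes of 9 lists around fatty acid synthesis (points, filled where the edgeR adjusted p-value was under 0.05), with the median of each list (vertical bar). The sterol enzymes lie mostly to the left of 0, the 3 tested targets of MondoA and ChREBP to the right, and most other lists on both sides.

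The genes whose pattern over the 8 libraries was most like that of SCD were found among 10703 tested genes whose mean reached 5 CPM, by the root mean square difference of log2(CPM + 0.5) after centring each gene on its control mean. They were MCAM (listed as AP002956.1, difference 0.0569), HMOX1 (0.0578), SLC29A2 (0.0621), MDK (0.0794) and KLHL24 (0.0868), in log2 units. Their log2 fold changes, from -1.07 to -0.96, and their calls follow from this choice. In this order ACSS2 was number 37 and FASN number 102, while ME1 was number 1108, ELOVL6 number 1349, ACACA number 3177, ACLY number 6445 and SCD5 number 9182. ACACB and MLXIPL were below 5 CPM.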

How the data were processed

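The authors deposited 1 table of expected counts per gene, one column per library and unscaled, in which 15.0% of nonzero values were not whole. The submitters' processing notes list cutadapt, STAR, RSEM, DESeq2 and hg38, without versions or roles; annotation release and use of strand are not given in the sources used here. Without strand, overlapping genes can share reads. Counts were rounded and tested in R 4.3.3 with edgeR 4.0.16 (filterByExpr, TMM, robust quasi-likelihood test, two-sided, no covariate), and p-values were adjusted by Benjamini-Hochberg over 13860 genes. Standard errors are the fold change over the root of F. CPM are counts per 1e6, TMM-scaled. Ratios used log2(CPM + 0.5) and exact permutation tests (scipy 1.17.1). Positions and exon lengths are from GENCODE 29 (GRCh38), promoters from RefSeq. FASN had no promoter entry. The edgeR procedure was tested on simulated counts.

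The genes, lists and tests were chosen with earlier results of these data known. Genes named are the 10 members, ELAPOR1, in each list the called gene of at least 5 CPM with the largest change each way, SREBF1, INSIG1, SLC25A1, TXNIP, MLXIP and the 5 genes nearest to SCD in pattern; others are marked. Some genes under this rule are not reported here. Of 149 list genes, 1 was matched by identifier. Alternatives, with DESeq2 1.42.0 and limma 3.58.1 among them, are given in the closing section. A fit with the replicate number as a block was among them.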

Additional observations from a re-analysis of the deposited data

Results flagged for a closer look

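Of 20 groups of 4 libraries examined (10 genes in 2 groups), 1 held a library far from the other 3, and chance alone would give 1. ACSS2 stood at 79.2 CPM in ELAPOR1 replicate 3, whereas the remaining ELAPOR1 libraries spanned 70.5 to 71.4 CPM, a gap of 0.896 of the range of the group. All 4 lay below the lowest control library at 120 CPM.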

How the results depend on the processing

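Under all 20 alternatives SCD stayed lower and past the threshold, with log2 fold changes from -1.02 to -0.97 (-1.01 to -0.98 with each library left out in turn). The 6 called genes remained called under 19 of them. In the test against a 1.5-fold change (glmTreat) 2 of the 10 genes, SCD and ACSS2, were called, with FASN just outside (adjusted p = 0.0536). That test called 5 of 89 tested pathway genes and 1.55% of all tested genes. Otherwise 6 or 7 of the 10 were called, the seventh being ACLY or ACACA, and 41 to 52 pathway genes; with each library left out these ranges were 6 to 7 and 45 to 49. ACACB changed sign, at 0.0056 under total count scaling, 0.0741 without control replicate 1, 0.0427 without ELAPOR1 replicate 2 and 0.0180 without ELAPOR1 replicate 3, and ran from -0.0824 to 0.0741 with each library left out, never past the threshold. The 5 called ratios stayed called with pseudocounts of 0.1 and 2. Same-numbered libraries did not deviate together detectably, with correlations over genes of -0.0213 to 0.0326, against -0.0680 to 0.0776 for differently numbered ones. Whether libraries were prepared in pairs cannot be told from these values. The fit with the replicate block called 7 of the 10 genes, adding ACACA (-0.11, adjusted p = 0.0498), 47 pathway genes, and SCD at -0.99; sign-flip tests of 4 pairs cannot go below 0.125. Depth limits ACACB, SCD5 and MLXIPL, with 16 to 104 counts per library.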
